A study of Mus musculus with 9 samples.

Results

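10 genes of the heat shock response were followed across the RNA-Seq libraries: *Hsf1*, *Hspa1a*, *Hspa1b*, *Hspa8*, *Hsph1*, *Dnajb1*, *Hsp90aa1*, *Hsp90ab1*, *Hspb1* and *Hspe1*. They were picked from the table by gene name, and 10 of 10 were found among the 15184 genes of the table. The products of 9 of them work in the cytosol and nucleus, whereas *Hspe1* encodes the small subunit of the mitochondrial chaperonin, so the description of the set as cytosolic does not hold for *Hspe1*.

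When proteins unfold, the transcription factor HSF1 forms trimers, binds heat shock elements (inverted repeats of the letters GAA) and switches on chaperone genes. HSP70 proteins bind exposed stretches of other proteins with the help of J-domain cochaperones and of HSP110 proteins, which release their nucleotide, and HSP90 proteins take over later folding of kinases, receptors and other clients. Small heat shock proteins hold unfolded proteins without ATP. Some family members (*Hspa8*, *Hsp90ab1*) are made at high levels in growing cells, while others (*Hspa1a*, *Hspa1b*) are classic stress-inducible genes.

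The cells were mouse embryonic fibroblasts (MEFs), which are fibroblasts cultured from embryos. 3 groups of 3 libraries each were compared: Empty, with the genotype label Empty vector, and the lines SAM1 and SAM2, both with the genotype label Hnrnpk_SAM. In the CRISPR/SAM system an inactive Cas9 and a guide RNA bring transcriptional activators to a chosen promoter, here that of *Hnrnpk*, an RNA-binding protein gene. By the study's methods WT MEFs were transduced with the viral vectors lentiMPHv2 and lentiSAMv2 and selected with blasticidin and hygromycin for 7 days, and the labels name no heat shock or other treatment. The labels do not say which guide each line carries, nor whether the 3 libraries of a line came from separate cultures, so the p-values below measure only the spread between libraries. The level of *Hnrnpk* itself, measured over the gene as a whole, was 0.11 lower on the log2 scale in SAM1 (adjusted p = 0.00252 by limma) and differed from Empty by 0.04 in SAM2 (adjusted p = 0.159 by limma), and the groups are therefore named by their labels. The study itself reported higher *Hnrnpk* RNA by qRT-PCR and higher protein by Western blot in its SAM MEFs.

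Values are normalized counts, that is, reads per gene divided by a factor for the depth of the library. The 9 libraries held between 41759636 and 49026626 reads on the listed genes. The 7 fibroblast markers examined were all listed and summed to 626989 to 673086 in Empty, 543733 to 546627 in SAM1 and 698059 to 718451 in SAM2. With the lines pooled, *Pdgfrb* rose by 0.74 on the log2 scale, *Pdgfra* fell by 0.71 and *Thy1* by 0.48 (limma), and *Col1a1*, *Col1a2*, *Col3a1* and *Vim* did not pass the test. *Epcam*, *Krt18* and *Ptprc* were not listed. The summed leukocyte markers, of which only *Cd68* was listed, were at 315 to 416 in Empty, 512 to 541 in SAM1 and 543 to 583 in SAM2. The 2 listed epithelial markers (*Cdh1* and *Krt8*, of 4) summed to 42.1 to 50.1 in Empty, 110.1 to 113 in SAM1 and 42.7 to 52.4 in SAM2, and both endothelial markers (*Pecam1* and *Cdh5*) to 87.0 to 94.5, 86.9 to 99.7 and 51.9 to 81.1. The part of other cells in the results was not tested. In bulk RNA, fewer cells of a type and less RNA per cell cannot be told apart.

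**Figure D1:**
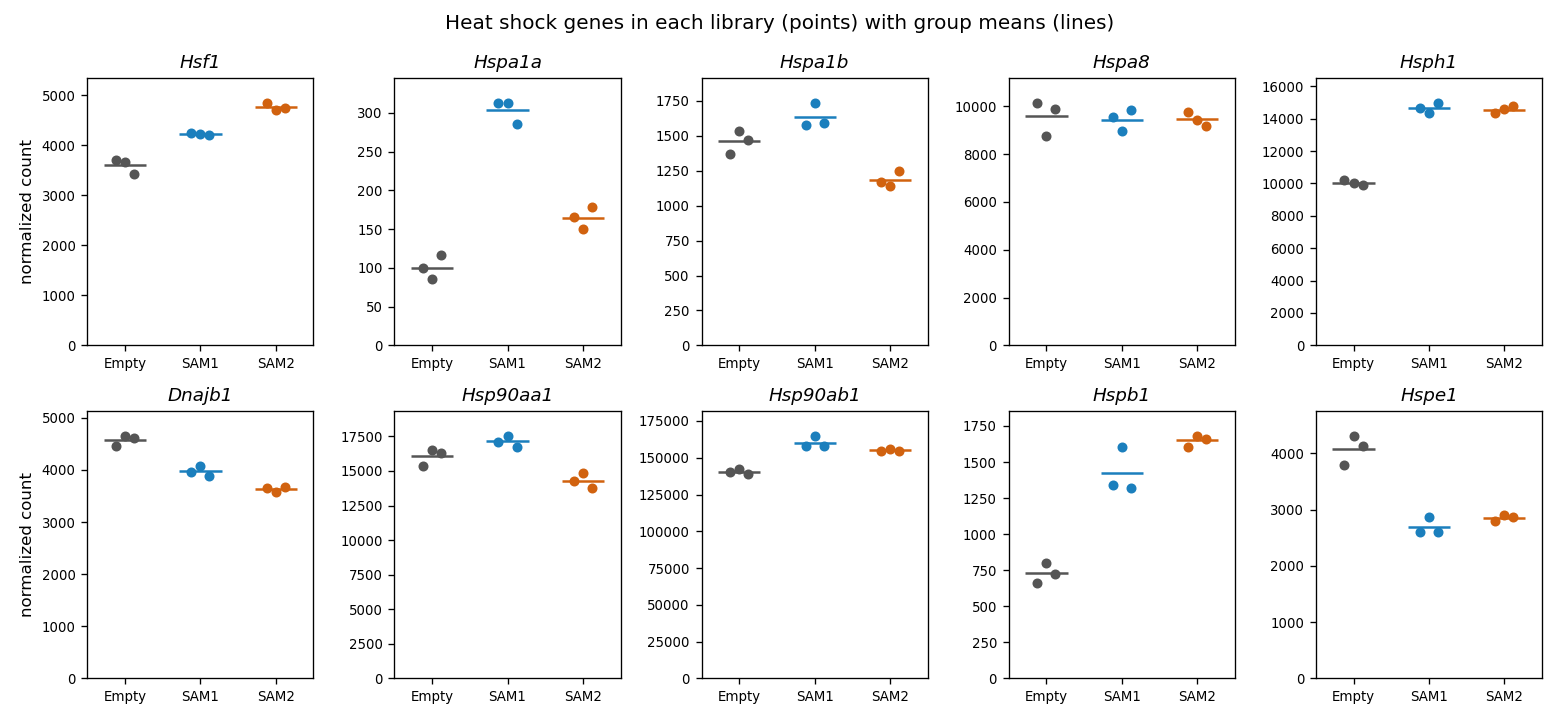
Normalized count (y axis, linear from 0) of each of the 10 genes in the 3 Empty, 3 SAM1 and 3 SAM2 libraries (points), with the mean of each group (line). *Hspa1a*, *Hspb1* and *Hsph1* stand higher in both lines than in Empty, *Hspe1* and *Dnajb1* lower, and the 3 groups overlap for *Hspa8*.

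*Hsf1*, *Hspa1a*, *Hsph1*, *Hspb1* and *Hsp90ab1* rose in SAM1 and in SAM2, by between 0.14 (*Hsp90ab1* in SAM2) and 1.60 (*Hspa1a* in SAM1) on the log2 scale. *Dnajb1* and *Hspe1* fell in each line. *Hspa1b* and *Hsp90aa1* rose in SAM1 and fell in SAM2, and *Hspa8* did not pass the test in any comparison. The comparisons of the lines share the 3 Empty libraries. When the 6 SAM libraries were taken as 1 group against Empty, as the study did, 7 of the 10 genes passed an adjusted p of 0.05 (limma), 5 higher and 2 lower, beside 53.9% of all listed genes (26.8% higher and 27.0% lower). In the fit that kept the lines apart, 9 passed in SAM1 (7 higher and 2 lower, beside 74.3% of all genes, 37.3% higher and 36.9% lower) and 9 in SAM2 (5 higher and 4 lower, beside 70.5%, 35.2% higher and 35.3% lower). The share of genes called was thus high throughout the table, and the counts of the heat shock genes are to be read against it. The median log2 fold change of the 10 genes was 0.18 in SAM1 and 0.062 in SAM2, while the medians of all genes were 0.0093 and −0.0015. The 3 SAM1 and the 3 Empty libraries did not overlap for 9 of the 10 genes, beside 74.4% of all genes, and the SAM2 and Empty libraries did not overlap for 9, beside 73.5%.

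*Hsf1*, the regulator of the response, lies at chr15:76361558-76388138 on the plus strand (GRCm39). Its normalized counts were 3702, 3664 and 3423 in Empty, 4243, 4214 and 4199 in SAM1, and 4849, 4698 and 4735 in SAM2. The 3 groups were fully separated, with SAM2 highest and Empty lowest. *Hsf1* was 17.4% higher than Empty in SAM1 (log2 fold change 0.23 ± 0.034, SE, adjusted p = 3.3e-05 by limma) and 32.4% higher in SAM2 (0.41 ± 0.034). It was 0.17 higher in SAM2 than in SAM1 (adjusted p = 0.000597 by limma). Scaling to the total of each library gave 0.37 in SAM1, and quantile normalization gave 0.11 between the lines. The 90 listed genes within 2 Mb had a median log2 fold change of 0.18 in SAM1 and 0.30 in SAM2, and the 595 genes of chromosome 15 had 0.19 and 0.32, values not far below those of *Hsf1*. Its 3 nearest matches over the 9 libraries, by the Euclidean distance of centred log2 values, were *Snhg18* (0.0737), *Mief1* (0.0864) and *Lmnb2* (0.0899), of which *Snhg18* and *Mief1* also lie on chromosome 15. Exons of *Dgat1* cover 48.4% of the *Hsf1* transcript on the other strand and exons of *Bop1* 7.01%. *Dgat1*, a triglyceride synthesis enzyme, rose by 0.19 in SAM1 and 0.37 in SAM2, and *Bop1*, a ribosome biogenesis factor, by 0.20 and 0.25, and whether the counting kept the strands apart is not given in the sources used here. The part of the neighbours and of the overlapping genes in the difference of *Hsf1* was not tested.

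*Hspa1a* and *Hspa1b* are the stress-inducible HSP70 genes, an almost identical pair that lies in tandem on the minus strand of chromosome 17. *Hspa1a* is at chr17:35188166-35191132 and *Hspa1b* at chr17:35175412-35178214 (GRCm39), with 9951 bases between them. Their upstream sequences are shown because the pair moved differently in the libraries although the sequence just before each start is nearly the same. The 250 bases before the start of *Hspa1a* in RefSeq (GRCm38.p6, chr17:34972157-34972406, minus strand) are printed 5′ to 3′, with the 2 inverted units of a heat shock element in capitals.
Hspa1a: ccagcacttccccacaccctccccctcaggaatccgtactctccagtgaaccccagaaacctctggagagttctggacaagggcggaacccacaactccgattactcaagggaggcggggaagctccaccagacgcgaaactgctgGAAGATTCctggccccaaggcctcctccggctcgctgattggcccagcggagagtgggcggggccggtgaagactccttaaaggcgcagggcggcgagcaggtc
The 250 bases before *Hspa1b* (chr17:34959239-34959488, minus strand, GRCm38.p6) were 98.8% identical and differed by C44T, T47C and T249G, with the base of *Hspa1a* first and positions counted from the 5′ end of the stretch. The capital letters, GAAGATTC, begin 104 bases before the start of both genes. The motif was searched as 2 units (GAANNTTC or TTCNNGAA, both strands), which 15.1% of 32851 RefSeq promoters of 300 bases hold.

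*Hspa1a* stood at 99.2, 85.1 and 117 normalized counts in Empty, at 312, 313 and 286 in SAM1, and at 165, 150.2 and 179 in SAM2. Every library of each line lay above Empty, and SAM1 lay above SAM2. The rise was 3.03-fold in SAM1 (log2 fold change 1.60, 95% interval 1.36 to 1.84, adjusted p = 2.42e-08 by limma) and 1.64-fold in SAM2 (0.72, 0.47 to 0.96, adjusted p = 7.04e-05 by limma). These values rest on 81 to 329 reads per library, the fewest of the 10 genes. Between the lines the difference was −0.88 (adjusted p = 1.83e-05 by limma). The 127 listed genes within 2 Mb had medians of 0.19 in each line. Exons of *Gm20481* cover 19.0% of the *Hspa1a* transcript on the other strand.

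*Hspa1b* had 1374, 1537 and 1473 normalized counts in Empty, 1579, 1738 and 1595 in SAM1, and 1169, 1138 and 1251 in SAM2. SAM1 was higher than Empty and SAM2 lower, without overlap. The log2 fold change was 0.16 ± 0.054 in SAM1 (SE, adjusted p = 0.0142 by limma) and −0.30 ± 0.054 in SAM2 (adjusted p = 0.000227 by limma), and the 6 SAM libraries together gave −0.068 (adjusted p = 0.707 by limma). The rise in SAM1 missed the threshold without Empty replicate 1 or without SAM1 replicate 2, with log2 fold changes no lower than 0.12, and scaling to totals gave 0.31 in SAM1 and −0.20 in SAM2. As a share of the summed pair, *Hspa1a* made up 5.25% to 7.35% in Empty, 15.2% to 16.5% in SAM1 and 11.7% to 12.5% in SAM2, so the order of the groups was the same as for *Hspa1a* alone. The summed pair was lower in SAM2 (1288 to 1430) than in Empty (1473 to 1622) and highest in SAM1 (1881 to 2051).

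Reads of 43 bases do not always tell the copies apart. Of the stretches of 43 bases in the *Hspa1a* transcript, 60.6% also occur in *Hspa1b*, and 64.2% of those of *Hspa1b* occur in *Hspa1a*. In the coding sequences 13.1% of the *Hspa1a* stretches and 15.9% of the *Hspa1b* stretches were found nowhere else in the genome, against 100% and 97.8% in the 3′ UTRs. These shares, here and for the other genes, take each stretch alone and ask for exact matches. The reads came in pairs, and the study's alignment allowed mismatches and several places per read. How reads that fit several places were counted is not given in the sources used here, and the levels of the pair are uncertain to that extent.

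**Figure D2:**
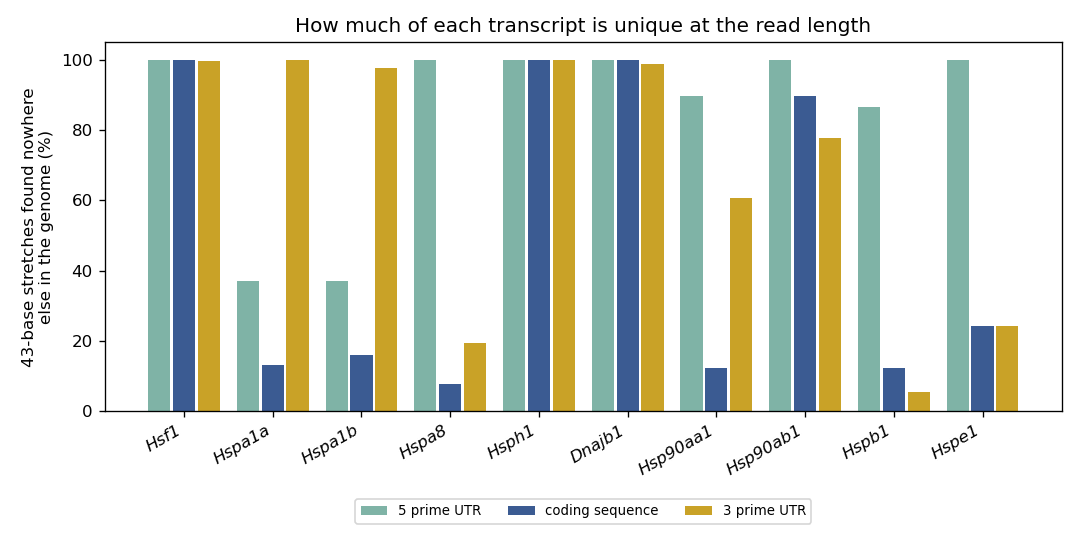
Share (%, y axis) of the 43-base stretches of each canonical transcript that occur nowhere else in GRCm39, for the 5′ UTR, the coding sequence and the 3′ UTR of the 10 genes (bars). *Hsph1* is unique throughout, whereas 13.1% of the *Hspa1a* and 7.74% of the *Hspa8* coding stretches are.

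*Hspa8* encodes HSC70, the HSP70 of unstressed cells, and lies at chr9:40711630-40731039 on the plus strand. It had 10158, 8764 and 9895 normalized counts in Empty, 9549, 8951 and 9854 in SAM1, and 9760.5, 9429 and 9198 in SAM2. The 3 groups overlapped. The log2 fold change was −0.022 in SAM1 (95% interval −0.13 to 0.090, adjusted p = 0.716 by limma) and −0.019 in SAM2 (−0.13 to 0.092, adjusted p = 0.757 by limma). Its sign turned under both other scalings and when single libraries were left out. Of its stretches 22.7% were unique, since processed pseudogenes such as *Gm15459* carry copies of it. The summed *Hspa1a* and *Hspa1b* counts were 0.145 to 0.185 times those of *Hspa8* in Empty, 0.191 to 0.229 in SAM1 and 0.137 to 0.155 in SAM2.

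*Hsph1* encodes HSP105, the HSP110 that acts as a nucleotide exchange factor for HSP70, and lies at chr5:149537636-149560156 on the minus strand. It stood at 10189, 10036 and 9889 normalized counts in Empty, at 14630, 14340 and 14987 in SAM1, and at 14330, 14576 and 14763 in SAM2. Both lines lay well above Empty and overlapped with each other. The rise was 1.46-fold in SAM1 (log2 fold change 0.55 ± 0.027, SE, adjusted p = 7.19e-10 by limma) and 1.45-fold in SAM2 (0.54 ± 0.027), and the lines differed by −0.0094 (95% interval −0.068 to 0.049). The 28 listed genes within 2 Mb had medians of −0.11 and −0.18, opposite in sign to *Hsph1*. All of its 43-base stretches were unique.

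*Dnajb1*, the J-domain cochaperone that stimulates the ATPase of HSP70, lies at chr8:84334811-84339820 on the plus strand. Its normalized counts were 4467, 4658 and 4622 in Empty, 3967, 4067 and 3877 in SAM1, and 3662, 3583 and 3671 in SAM2. The groups were separated in the order Empty, SAM1 and SAM2, from high to low. *Dnajb1* fell by 0.21 in SAM1 (log2, adjusted p = 4.01e-05 by limma) and by 0.33 in SAM2, and the lines differed by −0.13 (adjusted p = 0.00327 by limma). The 70 listed genes within 2 Mb had medians of 0.074 and −0.058. Scaling to the total of each library left the value in SAM1 at −0.065 (adjusted p = 0.0867 by limma) and that of the pooled lines at −0.15 (adjusted p = 0.0538 by limma), and quantile normalization gave −0.13 in SAM1. In the main fit the part of the HSP70 machinery measured here thus held *Hspa1a* and *Hsph1* that rose in both lines and *Dnajb1* that fell in both. *Hspa1b*, the larger part of the pair with *Hspa1a*, rose in SAM1 and fell in SAM2, and *Hspa8* did not pass the test.

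**Figure D3:**
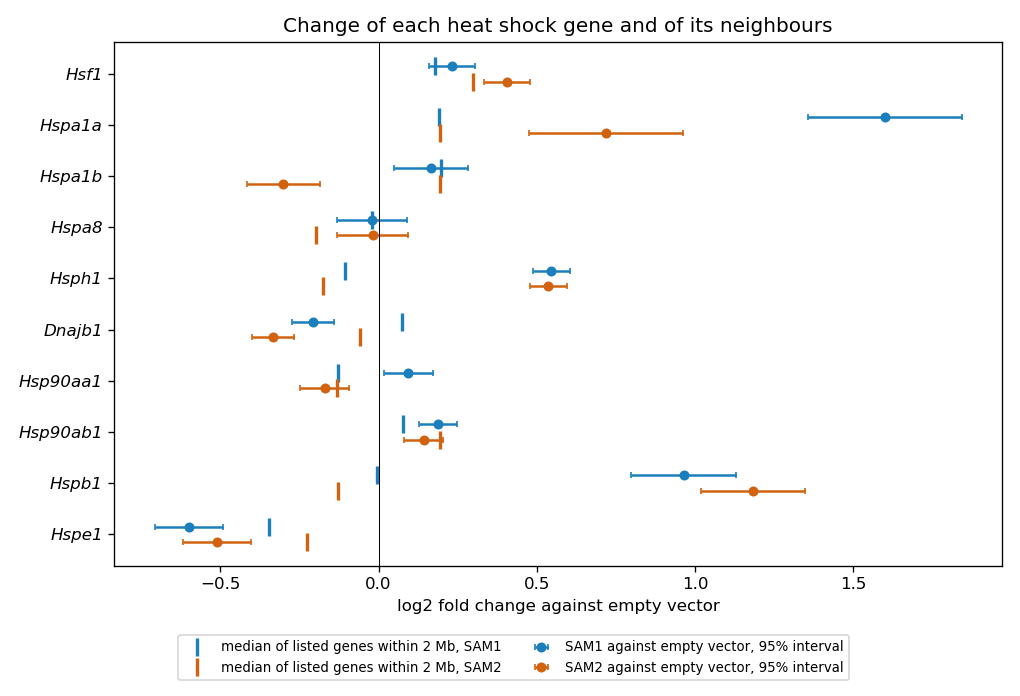
Log2 fold change against Empty (x axis) of each gene in SAM1 and SAM2 (points, with 95% intervals of the limma fit), beside the median of the listed genes within 2 Mb (upright marks). *Hspa1a*, *Hsph1* and *Hspb1* lie far to the right of their neighbours, while *Hsf1* and *Hsp90ab1* lie close to theirs and *Hspa8* spans 0, with a sign that turned under other scalings.

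*Hsp90ab1*, the constitutive HSP90, was the most abundant of the 10 genes, with 52009 ± 692 normalized counts per kb of canonical transcript in Empty (SD, n = 3). On the same scale *Hspe1* (5266 ± 341), *Hsp90aa1*, the inducible HSP90 (4551 ± 173), and *Hspa8* (4012 ± 309) came next, and *Hsph1* (1625 ± 24.3), *Dnajb1* (1297 ± 28.6), *Hspb1* (795 ± 75.7), *Hsf1* (700.1 ± 29.5), *Hspa1b* (521 ± 29.3) and *Hspa1a* (33.8 ± 5.36) followed. *Hspb1* and *Hsf1* differed by less than the sum of their SDs, and the other neighbours in this order by more. These levels assume the canonical transcript and unique reads. The SDs cover only the spread between libraries. The share of unique stretches ranged from 22.7% (*Hspa8*) to 100% (*Hsph1*) among the 10 genes, and the order is uncertain to that extent.

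*Hsp90ab1* lies at chr17:45878552-45891949 on the minus strand. It had 140213, 142607 and 138919 normalized counts in Empty, 157705, 165022 and 157667 in SAM1, and 154822, 155829 and 154842 in SAM2. All 6 SAM libraries lay above Empty. The rise was 13.9% in SAM1 (log2 fold change 0.19, adjusted p = 4.73e-05 by limma) and 10.4% in SAM2 (0.14, adjusted p = 0.000547 by limma), beside medians of 0.076 and 0.19 for the 59 listed genes within 2 Mb, whose part was not tested. Exons of *Slc35b2*, which was −0.13 in SAM1 and −0.096 in SAM2, cover 9.84% of its transcript on the other strand. With the lines pooled the rise was 0.17 (adjusted p = 0.0136 by limma), and without Empty replicate 3 its adjusted p was 0.0592. The size of the rise depended on the scaling: quantile normalization gave 0.48 in SAM1 and 0.58 in SAM2, with SAM2 then the higher line, and scaling to totals gave 0.33 and 0.25.

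*Hsp90aa1* lies at chr12:110656842-110669166 on the minus strand. The libraries held 15376, 16536 and 16279 normalized counts in Empty, 17119, 17555 and 16726 in SAM1, and 14273, 14820 and 13749 in SAM2. SAM1 was above Empty and SAM2 below it. The log2 fold change was 0.093 in SAM1 (adjusted p = 0.031 by limma) and −0.17 in SAM2 (adjusted p = 0.00086 by limma), and the lines differed by −0.26 (adjusted p = 3.3e-05 by limma). The rise in SAM1 did not pass without Empty replicate 1, SAM1 replicate 1 or SAM1 replicate 2 (log2 fold changes from 0.062), and was 0.25 with quantile normalization and 0.24 with totals. The fall in SAM2 did not pass under either scaling (−0.069 and −0.066). The 45 listed genes within 2 Mb had a median of −0.13 in each line. Of its stretches 30.6% were unique, and 62.6% also occur within *Ssh2*. The ratio of *Hsp90aa1* to *Hsp90ab1* counts was 0.11 to 0.117 in Empty, 0.106 to 0.109 in SAM1 and 0.0888 to 0.0951 in SAM2, so each line was below Empty without overlap.

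**Figure D4:**
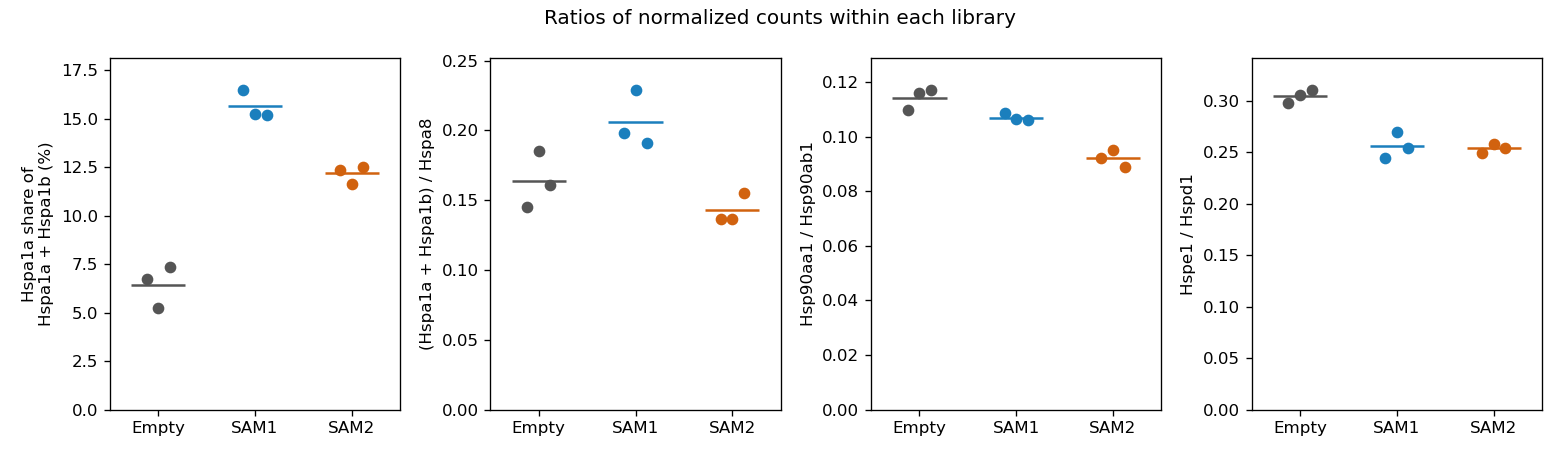
Ratios of normalized counts within each library (points) with group means (lines): the share of *Hspa1a* in the summed *Hspa1a* and *Hspa1b* (%), the summed pair over *Hspa8*, *Hsp90aa1* over *Hsp90ab1*, and *Hspe1* over *Hspd1*. The *Hspa1a* share is highest in SAM1 (15.2% to 16.5%) and the *Hsp90aa1* ratio lowest in SAM2 (0.0888 to 0.0951).

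*Hspb1* encodes HSP27 (HSP25 in mice), a small heat shock protein, and lies at chr5:135916760-135918417 on the plus strand. The stretch from 137 to 70 bases before its RefSeq start (GRCm38.p6, chr5:135887782-135887849, plus strand) is shown, with its 2 elements of 2 units each in capitals, because *Hspb1* rose in both lines.
Hspb1: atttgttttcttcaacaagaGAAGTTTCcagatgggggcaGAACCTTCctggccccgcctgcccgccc
Its normalized counts were 661, 799 and 724 in Empty, 1340, 1605 and 1322 in SAM1, and 1607, 1683 and 1659 in SAM2. All SAM libraries lay far above Empty, and SAM2 lay just above SAM1, whose replicate 2 nearly reached the lowest SAM2 library. *Hspb1* was 1.95-fold higher in SAM1 (log2 fold change 0.96 ± 0.076, SE, adjusted p = 8.48e-08 by limma) and 2.27-fold higher in SAM2 (1.18 ± 0.076), while the 87 listed genes within 2 Mb had medians of −0.0036 and −0.13. The lines differed by 0.22 (adjusted p = 0.0248 by limma), a difference that did not pass without SAM1 replicate 1, SAM1 replicate 3, SAM2 replicate 2 or SAM2 replicate 3. Of its stretches 26.5% were unique, and most of the others also occur in the pseudogene *Hsp25-ps1*.

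*Hspe1* encodes HSP10, the lid of the mitochondrial HSP60 chaperonin, and lies at chr1:55127260-55130476 on the plus strand. The start of its canonical transcript is 108 bases from that of *Hspd1*, the HSP60 gene, which is read in the other direction. Of the 6 genes with a RefSeq promoter, *Hspe1* has 2 overlapping matches to a heat shock element of 3 units before its start, beginning 89 and 84 bases before it. The 30 bases around them (GRCm38.p6, chr1:55088053-55088082, plus strand) are shown, with the joined matches in capitals.
Hspe1: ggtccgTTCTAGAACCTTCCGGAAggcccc
The 3-unit element (GAANNTTCNNGAA or TTCNNGAANNTTC, both strands, overlapping the 2-unit search) was found in 198 of the 32851 promoters (0.603%). For comparison, *Hsph1* had 2 units before both of its RefSeq starts (chr5:149636351-149636380, minus strand, GRCm38.p6) and a 3-unit element after them.
Hsph1: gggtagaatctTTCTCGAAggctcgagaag
None of these letters was found in the windows of *Dnajb1*. The sequence table matched 6 of the 10 genes, and *Hsf1*, *Hspa8*, *Hsp90aa1* and *Hsp90ab1* were not among them. A match of letters is a description and not a binding site.

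*Hspe1* stood at 3792, 4314 and 4122 normalized counts in Empty, at 2607, 2866 and 2593 in SAM1, and at 2792, 2911 and 2866 in SAM2. Both lines lay below Empty and overlapped with each other. *Hspe1* fell by 0.60 in SAM1 (log2, adjusted p = 1.3e-07 by limma) and by 0.51 in SAM2, the largest falls of the set. Its partner *Hspd1* fell by 0.35 in SAM1 and by 0.25 in SAM2, and the ratio of *Hspe1* to *Hspd1* counts was 0.298 to 0.311 in Empty, 0.244 to 0.269 in SAM1 and 0.250 to 0.258 in SAM2. The 23 listed genes within 2 Mb had medians of −0.35 and −0.23. Of its stretches 49.0% were unique, and 14.5% of its transcript overlaps *Hspd1* on the other strand.

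The lines were also compared with each other. Of the 10 genes, 6 differed between SAM2 and SAM1 (limma), 2 higher and 4 lower, beside 60.3% of all genes (31.1% higher and 29.2% lower), and the libraries of the lines did not overlap for 7, beside 68.2%. *Hsf1* and *Hspb1* were higher in SAM2, and *Hspa1a*, *Hspa1b*, *Dnajb1* and *Hsp90aa1* were lower. The difference of *Hsp90ab1*, −0.045, did not pass the test (adjusted p = 0.187 by limma), nor did that of *Hspe1*, 0.089 (adjusted p = 0.14 by limma).

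To place the 10 genes among their partners, 92 further genes of the chaperone network were described in 8 lists, which share 13 genes, and 88 were listed in the table. Of these 88, 54 were called with the lines pooled (20 higher), 76 in SAM1 (30 higher) and 64 in SAM2 (27 higher), read beside the shares of all genes given above. Many of these differences are small. When libraries were scaled to their totals the median of all genes moved to 0.15 in SAM1 and 0.10 in SAM2, and the share of higher genes among those called with the lines pooled moved from 49.8% to 65.3%, so directions are given for that scaling too. Of the 15184 genes, totals gave 7232 higher and 4101 lower in SAM1, and 6555 and 4131 in SAM2. Quantile normalization gave 5213 and 6005 in SAM1, and 5053 and 5620 in SAM2. The counts of the lists under each scaling are to be read against these.

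Among the relatives of HSP70 and HSP110, 7 of 8 were higher in SAM1 and 1 lower, and 4 were higher and 2 lower in SAM2, with medians of 0.42 and 0.33, and scaling to totals gave 7 higher and 0 lower in SAM1 and 6 and 1 in SAM2. *Hspa4l*, an HSP110 relative, rose by 2.00 in SAM1 and by 1.48 in SAM2 (log2, limma, adjusted p = 2.2e-12 and 6.24e-11), more than any of the 10 genes. *Hspa12a*, a distant HSP70 relative, rose by 1.13 and 1.19. Of the 4 other genes listed with the HSF family, 2 were higher and 2 lower in SAM1, and 2 and 1 in SAM2. Scaling to totals gave 2 higher and 0 lower in SAM1 and 2 and 1 in SAM2. Besides *Hsf1*, only *Hsf4* rose in both lines (1.14 and 0.49), at a mean of 62.2 normalized counts in Empty. *Hsbp1*, whose product binds HSF1, was −0.17 in SAM1 and −0.22 in SAM2, a fall in SAM1 that did not pass with either other scaling.

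J-domain genes were lower more often than higher, with 11 of 16 lower in SAM1 (4 higher) and 9 lower in SAM2 (3 higher), as was *Dnajb1*, but scaling to totals gave 5 lower and 5 higher in SAM1 and 8 and 5 in SAM2, and quantile normalization 7 and 5 and 9 and 3. *Dnajb6*, a suppressor of protein aggregation, fell by 0.65 and 0.75, and *Dnajb2* by 0.38 and 0.41. *Dnajc9*, a histone cochaperone, rose by 0.92 and 0.80, and *Dnajc21*, which acts in ribosome maturation, by 0.29 and 0.25. The 27 cochaperones of HSP90 and HSP70 split evenly, with 10 higher and 11 lower in SAM1 and 9 and 10 in SAM2, against 14 and 9 and 14 and 7 with totals. *Bag2*, an HSP70 exchange factor, fell by 0.71 and 0.60, and *Cdc37*, which brings kinases to HSP90, by 0.41 and 0.43. *Sugt1* rose by 0.54 and 0.65, and *St13*, the HSP70-interacting protein, by 0.39 and 0.33.

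Of the 8 small heat shock genes on the list, 4 were listed in the table, and *Cryaa*, *Hspb3*, *Hspb7* and *Hspb9* were not. *Cryab*, the alpha-B crystallin gene, fell by 0.75 in SAM1 and 0.53 in SAM2, in the direction opposite to *Hspb1*. *Hspb8* rose by 0.17 and 0.096, and *Hspb6* was 0.21 in SAM1 and 0.091 in SAM2 (adjusted p = 0.0697 by limma). Scaling to totals gave *Hspb6* a called rise of 0.19 in SAM2 (adjusted p = 0.000893 by limma). Of these 4 genes, 2 were higher and 1 lower in SAM1, and 1 and 1 in SAM2, against 2 and 1 in both lines with totals. TRiC and prefoldin, which fold actin and tubulin, had 8 of 14 subunits lower and 4 higher in SAM1 and 6 and 4 in SAM2, but the balance turned with totals (2 lower and 6 higher in SAM1, 4 and 6 in SAM2) and with quantile normalization (3 and 7, 3 and 5). Less the median of all genes, the median of this list in SAM1 was −0.11 both in the main fit and with totals. With quantile normalization it was 0.12. In SAM2 these values were −0.038, −0.037 and 0.041. *Cct6a* fell by 0.38 and 0.33 and *Pfdn2* by 0.34 and 0.26, while *Cct7* rose by 0.28 and 0.34 and *Pfdn1* by 0.15 and 0.16.

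The mitochondrial chaperones and proteases, the partners of *Hspe1*, had 9 of 10 lower in SAM1 and 1 higher, and 4 lower and 3 higher in SAM2, against 5 and 2 and 4 and 4 with totals. *Clpx*, the unfoldase of the ClpXP protease, fell by 0.42 and 0.27, and its partner *Clpp* rose by 0.26 and 0.24. Of 18 other heat-inducible HSF1 target genes, 9 were lower and 4 higher in SAM1, and 9 lower and 5 higher in SAM2, against 7 and 8 in both lines with totals, and 7 and 7 in SAM1 and 6 and 7 in SAM2 with quantile normalization. *Ier5*, which promotes HSF1 activity, fell by 0.78 and 0.56. *Bag3*, a widely used marker of HSF1 activity that was picked here after its values were seen, rose by 0.099 in SAM1 (adjusted p = 0.00952 by limma) and was −0.022 in SAM2 (adjusted p = 0.539 by limma), where scaling to totals gave a called rise of 0.082 (adjusted p = 0.0234 by limma).

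**Figure D5:**
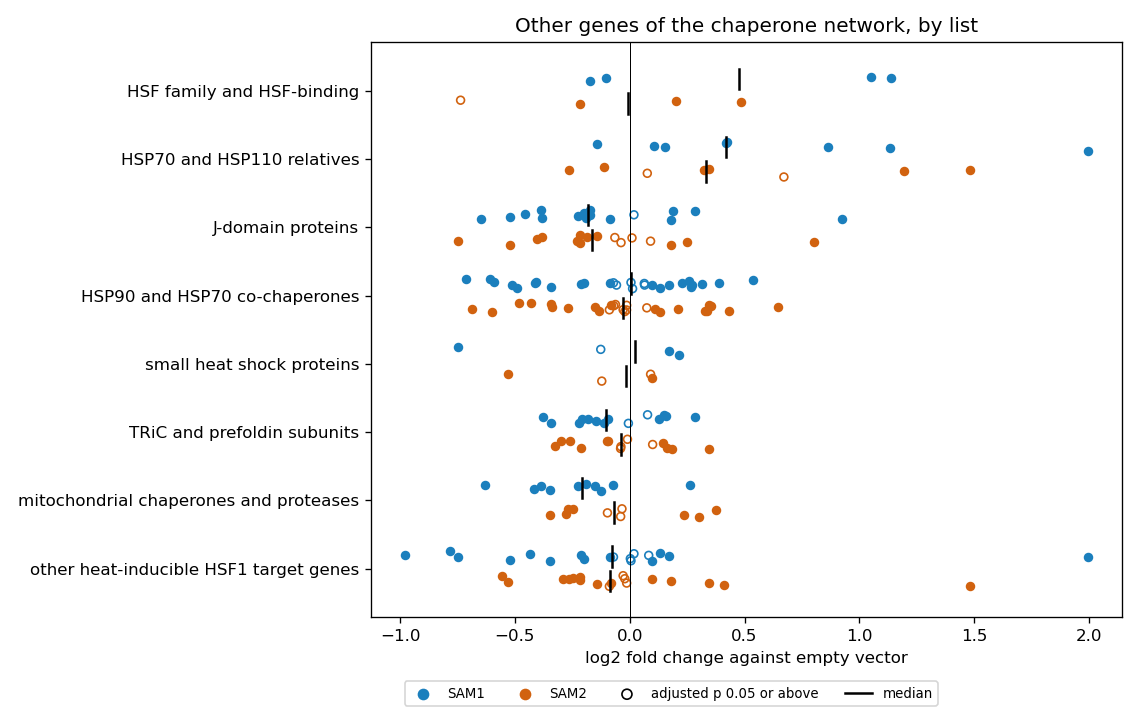
Log2 fold change against Empty (x axis) of the 88 listed genes of the 8 lists in SAM1 and SAM2, with filled points for adjusted p under 0.05 (limma), open points for the rest and a bar at each median. Relatives of HSP70 and HSP110 lie mostly to the right in the main fit, which is the one drawn, while the other lists hold genes on both sides of 0. For TRiC and prefoldin, J-domain, cochaperone, mitochondrial and target genes, the balance of called genes shifted with scaling to totals. The balance of all genes shifted with that scaling too.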

How the data were processed

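PolyA+ RNA of 9 MEF libraries was prepared with a directional kit and sequenced in pairs of 43 bases. Per the labels, the authors checked reads with FastQC (0.11.0), aligned them to GRCm39 with TopHat2 and Bowtie, and counted them per gene with HTSeq, and the deposited values are a signal, the counts divided by DESeq2 size factors (0.856 to 1.08 as recovered here). The authors' filter asked for values above 10 in 30% of libraries, which each of the 15184 genes met when tested. How HTSeq treated strand and reads fitting several places is not given in the sources used here. Group and replicate came from the titles, and 0 columns were left unmapped.

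In each library 100% of values were whole multiples of 1 read (tolerance 0.1), and reads were recovered from these steps for the alternatives edgeR (4.0.16) and DESeq2 (1.42.0). All genes and 9 libraries entered a limma fit (3.58.1, R 4.3.3) of log2(normalized count + 1), moderated with a trend over expression, and p-values were adjusted after Benjamini-Hochberg, with calls at 0.05. Fold changes are on that scale, which understates low genes. On simulated counts of the SAM against Empty comparison limma called 153 of 200 changed genes among 15184 (76.5%) and 7 unchanged ones. The simulation changed these genes alike in both lines and used 1 setting of replicate spread for all genes. In the data 53.9% of genes were called with the lines pooled and 60.3% differed between the lines. The simulated rates may therefore not hold for these data. Replicate pairs differed by more than sampling noise (chi-square per gene 1.45 to 12.9). The Empty pairs had 10.7 to 12.9, and the SAM1 pairs with replicate 2 had 7.83 and 9.30. The other SAM1 pair had 1.45 and the SAM2 pairs 1.53 to 2.28. The fit nevertheless gave all groups 1 shared estimate of the spread of each gene.

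Positions, transcripts and overlaps are from GRCm39 with GENCODE vM39 (14791 names found once, 68 more often and 325 not), and upstream sequences from RefSeq on GRCm38.p6. Overlaps set the canonical transcript of each gene against the exons of all annotated transcripts of the other gene. The 10 genes and the lists were chosen with earlier results of these data known. Named genes were all 10, the 2 called higher and 2 called lower with the smallest adjusted p in each list, and the 3 genes nearest to *Hsf1*. Alternatives were pseudocounts of 0.5 and 10, a filter of 10 in every library, quantile normalization, scaling to library totals, the replicate block, the mean of the 2 lines, the count tests and each library left out in turn.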

Additional observations from a re-analysis of the deposited data

Results flagged for a closer look

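The following genes differed between the lines by the limma contrast of SAM2 against SAM1, that is, their effects against the shared Empty libraries were not the same size. *Hsf1* was 0.174 higher in SAM2 on the log2 scale (adjusted p = 0.000597), with 0.231 in SAM1 and 0.405 in SAM2 against Empty. *Hspa1a* differed by −0.881 (adjusted p = 1.83e-05), with 1.60 in SAM1 and 0.718 in SAM2. *Hspa1b* differed by −0.465 (adjusted p = 7.71e-06), with 0.164 and −0.301. *Dnajb1* differed by −0.126 (adjusted p = 0.00327), with −0.207 and −0.332. *Hsp90aa1* differed by −0.263 (adjusted p = 3.3e-05), with 0.0934 and −0.170. *Hspb1* differed by 0.219 (adjusted p = 0.0248), with 0.964 and 1.18. Of all genes, 60.3% differed between the lines by the same test. For *Hspa1b* and *Hsp90aa1* the effects in the main fit had opposite signs, so the pooled comparison of 6 libraries averaged a rise and a fall. Both rises in SAM1 lost their call when some single libraries were left out. The fall of *Hsp90aa1* in SAM2 lost its call under both other scalings. The neighbours of *Hsf1* within 2 Mb differed by a median of 0.17 between the lines, and those of *Hspa1a* and *Hspa1b* by 0.0049. What gave these differences was not tested.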

How the results depend on the processing

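The counts of called genes, among the 10 and over the table, stayed within 1.5 times their main value in each of 138 recomputations, and of 690 recomputed log2 fold changes 645 kept direction and side of the threshold, 25 changed sign, 16 lost the call and 4 gained it with the same sign. With quantile normalization *Hspa8* stood at 0.0771 with the lines together, 0.1 in SAM1, 0.0538 in SAM2 and −0.0467 between the lines, *Hsp90aa1* at 0.0916 with the lines together, and *Hsp90ab1* at 0.0968 between the lines (adjusted p = 0.0429 by limma), a call opposite in sign to that with totals. With scaling to totals *Hspa1b* stood at 0.0547, *Hspa8* at 0.103 and *Hsp90aa1* at 0.0849 with the lines together, and *Hspa8* at 0.121 in SAM1 (adjusted p = 0.0401 by limma), 0.0846 in SAM2 and −0.0361 between the lines. With edgeR *Hspa8* was −0.00157 between the lines. Leaving out libraries moved *Hspa8* from −0.085 to 0.0214 with the lines together, −0.0863 to 0.0202 in SAM1, −0.0838 to 0.0227 in SAM2 and −0.0362 to 0.0331 between the lines, and *Hsph1* from −0.0248 to 0.00701 between the lines. Scaling to totals lost the calls of *Dnajb1* with the lines together (−0.147, adjusted p = 0.0538) and in SAM1 (−0.0645), of *Hsp90aa1* in SAM2 (−0.066) and of *Hspb1* between the lines (0.181), and quantile normalization those of *Hsp90aa1* in SAM2 (−0.0692) and *Hspb1* between the lines (0.185). Calls with the sign kept were gained between the lines for *Hsph1* with quantile normalization (−0.0766), for *Hsp90ab1* with totals (−0.0837) and for *Hspe1* with the replicate block (0.0887) and without SAM1 replicate 2. The causes were not tested. Called genes among the 10 ranged from 6 to 7 with the lines together, from 7 to 9 in SAM1, from 9 to 9 in SAM2 and from 5 to 7 between the lines when single libraries were left out. Over all genes the same runs called 6761 to 8133 with the lines together and 10734 to 11150 in SAM1. They called 10014 to 10893 in SAM2 and 8235 to 9492 between the lines. The numbers in the labels are not said to mark a shared culture or day. Deviations of same-numbered libraries correlated weakly (r 0.00237 to 0.117 over 9 pairs, mean 0.0531, 3 of them over 0.1, against a mean of −0.0265 over 18 other pairs), and 8 of 9 libraries correlated best with one of their own number, a hint from the data and not the design. The main fit has no block. Under the replicate block 7, 9, 9 and 7 of the 10 were called, with 7343 genes called in all with the lines together. That total was below the main fit, but the block called more genes in the other comparisons. It called 5849 higher and 5782 lower in SAM1, against 5667 and 5608 in the main fit. The values were 5551 and 5544 against 5340 and 5359 in SAM2, and 5053 and 4759 against 4722 and 4440 between the lines. Averaging the 2 lines in a 3-group fit called 11323 genes against 8179 when the 6 libraries were taken as 1 group, and 7 of the 10 in both. With about 81 to 329 reads, *Hspa1a* has the largest counting error of the set.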

Other observations

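The lists of the chaperone network were also compared between the lines. Of the 10 mitochondrial chaperones and proteases, 7 were higher in SAM2 than in SAM1 and 1 lower (limma), beside 31.1% higher and 29.2% lower among all genes, with a median of 0.17, and both other scalings gave 5 higher and 1 lower. Of the 15184 genes, totals gave 4090 higher and 5079 lower between the lines, and quantile normalization 4618 and 4377. The list counts between the lines are to be read against these. Chosen after their values were seen, *Lonp1*, the matrix protease, was −0.15 in SAM1 and 0.38 in SAM2 against Empty, and *Hspa9*, the mitochondrial HSP70, −0.075 and 0.30, each past the threshold in both lines, but the values in SAM1 depended on the scaling: *Hspa9* was 0.17 with quantile normalization and 0.068 with totals, both called higher, and *Lonp1* lost its call (0.012 and −0.0085). Of the 18 other heat-inducible HSF1 target genes, 11 were higher in SAM2 than in SAM1 and 5 lower, with a median of 0.14, and scaling to totals gave 9 and 6 and quantile normalization 8 and 7. *Serpinh1*, the collagen chaperone HSP47, also picked after its values were seen, fell by 0.98 in SAM1, and was −0.29 in SAM2, where quantile normalization turned it to a called rise of 0.13 (adjusted p = 0.00107 by limma).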
